A study of Mus musculus with 16 samples.

Results

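The genes described here are 35 genes of heart muscle and its regulation, taken from a fixed list of gene symbols and measured in 8 sorted populations of differentiating mouse embryonic stem cells. Each gene was represented by the probe set with the highest mean among those annotated to that symbol alone, so that 35 of the 18193 genes with such a probe set are covered. The list holds 6 myosin light and heavy chain genes, 6 genes of the thin filament, 7 of the Z-disc, M-band and cytoskeletal scaffold, 4 of calcium handling, 2 natriuretic peptide genes and 10 regulators of transcription or chromatin. The rule for membership uses gene names and no expression value.

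The study followed CCE cells, an embryonic stem cell line kept with leukemia inhibitory factor (LIF) on feeder cells and taken off them beforehand, as they formed embryoid bodies once LIF was withdrawn. Dissociated cells were fixed in ethanol and acetic acid, stained with antibodies and sorted, and RNA from each fraction was hybridised to Affymetrix mouse 430 2.0 arrays. The 4 positive populations were VEGF-R2+ cells at day 2.5, which the study took as hemangioblasts, CD41+ cells at day 3.5, taken as hematopoietic progenitors, CD144+ cells at day 3.5, taken as angioblasts, and CD144+ cells at day 6.5, taken as endothelial cells. The 4 negative populations were the VEGF-R2-, CD41- and CD144- cells of the same days, and each of the 8 populations had 2 arrays from separately conducted experiments. All 16 samples come from the same line, and no transgene or drug is named for any of them. No fraction was gated for a cardiac marker, and a negative population is a mixture of whatever cells lacked the marker. The study's methods also write the CD41+ cells as VEGF-R2+/CD41+ and the CD41- cells as VEGF-R2-/CD41-. The 2 fractions of the CD41 sort may therefore differ in VEGF-R2 as well as in CD41. In its results the CD144+ cells are also written as VEGF-R2+/CD144+, and the CD144- cells are named by CD144 alone.

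Heart muscle shortens when myosin heavy and light chains of the thick filament pull on actin, which is controlled by tropomyosin and the troponin complex according to the calcium level. In the embryo, cardiac progenitors arise from mesoderm that expresses VEGF-R2, and the transcription factors Isl1, Nkx2-5, Hand1, Hand2, Tbx5, Tbx20 and Mef2c act in them before and during the onset of contractile genes. The same mesoderm gives rise to blood and endothelium, and Mef2c and some T-box and Hand genes also act outside the heart muscle.

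Levels are MAS5 signals, a linear measure of brightness, with a median of 85.8 over all values. Changes are given as log2 change ± standard error of (signal + 6) from limma, fitted over 45037 probe sets on all 16 arrays, and a gene was called where its Benjamini-Hochberg adjusted p was under 0.05. The added 6 makes the changes of dim genes smaller than their signal ratios. The sorting markers followed the labels, with log2 changes of 1.49 ± 0.27 for Kdr, which encodes VEGF-R2 (adjusted p = 0.000554), 4.87 ± 0.24 for Itga2b, which encodes CD41 (adjusted p = 2.81e-10), and 5.85 ± 0.35 and 6.05 ± 0.35 for Cdh5, which encodes CD144, at day 3.5 and day 6.5 (adjusted p = 1.28e-08 and 7.79e-09). The array control transcripts, 9 probe sets, had a geometric mean of 5171 to 9079 on positive arrays and of 1830 to 2571 on negative arrays, so a difference between positive and negative cells of a day cannot be told apart from a difference between these sets of arrays. The Spearman correlation of duplicates was 0.8725 to 0.8954 in positive and 0.9452 to 0.9553 in negative populations. With 2 arrays per population the p-values rest on a spread pooled over all populations. Since duplicates agreed less in positive populations, this spread may be too small for comparisons among them. In these sorted bulk samples, fewer cells of a type and less RNA per cell cannot be told apart.

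Promoters of Myl7, Actc1 and Myh6 are shown because these genes followed different courses over the populations: Myl7 had its highest mean in VEGF-R2+ cells, Actc1 in CD144+ cells at day 6.5 and Myh6 in VEGF-R2- cells. RefSeq promoters of the GRCm38.p6 build, from 250 bases before to 50 bases after the annotated start, were found for 32 of the 35 genes. All 3 shown lie on the minus strand, at chr11:5898733-5899032 (Myl7), chr2:114052826-114053125 (Actc1) and chr14:54966558-54966857 (Myh6), and are written 5′ to 3′ in the direction of transcription. Capitals mark a GATA, CArG or TATA match.
Myl7: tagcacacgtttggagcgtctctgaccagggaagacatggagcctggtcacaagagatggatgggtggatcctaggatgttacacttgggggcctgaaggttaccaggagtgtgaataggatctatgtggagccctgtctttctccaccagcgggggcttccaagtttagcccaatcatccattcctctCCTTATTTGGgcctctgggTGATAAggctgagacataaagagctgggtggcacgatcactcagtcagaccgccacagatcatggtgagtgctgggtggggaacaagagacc
Actc1: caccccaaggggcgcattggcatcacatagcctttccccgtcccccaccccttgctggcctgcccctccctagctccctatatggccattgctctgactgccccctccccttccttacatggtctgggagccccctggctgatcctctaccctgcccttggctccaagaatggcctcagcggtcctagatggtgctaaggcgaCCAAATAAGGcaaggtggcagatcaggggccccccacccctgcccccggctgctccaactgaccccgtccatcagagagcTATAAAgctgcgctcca
Myh6: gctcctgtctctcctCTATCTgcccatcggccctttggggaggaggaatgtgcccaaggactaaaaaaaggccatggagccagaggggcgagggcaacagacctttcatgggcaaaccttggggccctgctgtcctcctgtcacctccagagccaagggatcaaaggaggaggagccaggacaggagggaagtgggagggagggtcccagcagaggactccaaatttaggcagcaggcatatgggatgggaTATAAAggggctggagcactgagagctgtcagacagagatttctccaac

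In Myl7 the CArG match, the core sequence bound by serum response factor, covered positions -61 to -52 from the start and a GATA match covered -42 to -37. Actc1 held a CArG match at -47 to -38 and a TATA match at 34 to 39. Myh6 held a GATA match on the other strand at -235 to -230 and a TATA match at 2 to 7. A CArG match was present for 5 of the 32 genes (Myl7, Myl3, Actc1, Ldb3 and Myom1), or 15.6%, against 1.81% of all 27025 genes with a promoter. GATA matches (AGATA or TGATA followed by A or G, on either strand) were present for 14 genes (43.8%) against 33% of all genes, and MEF2 matches for 4 (12.5%) against 3.7%. The TATAAA box on the sense strand was present for 5 genes (15.6%) against 9.77%. The core AAGTG of NKX2-5 sites, on either strand, was present for 14 genes (43.8%) against 50%, and the T-box core AGGTGT for 5 (15.6%) against 15.7%. A match says only that these letters stand in the window.

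**Figure D1:**
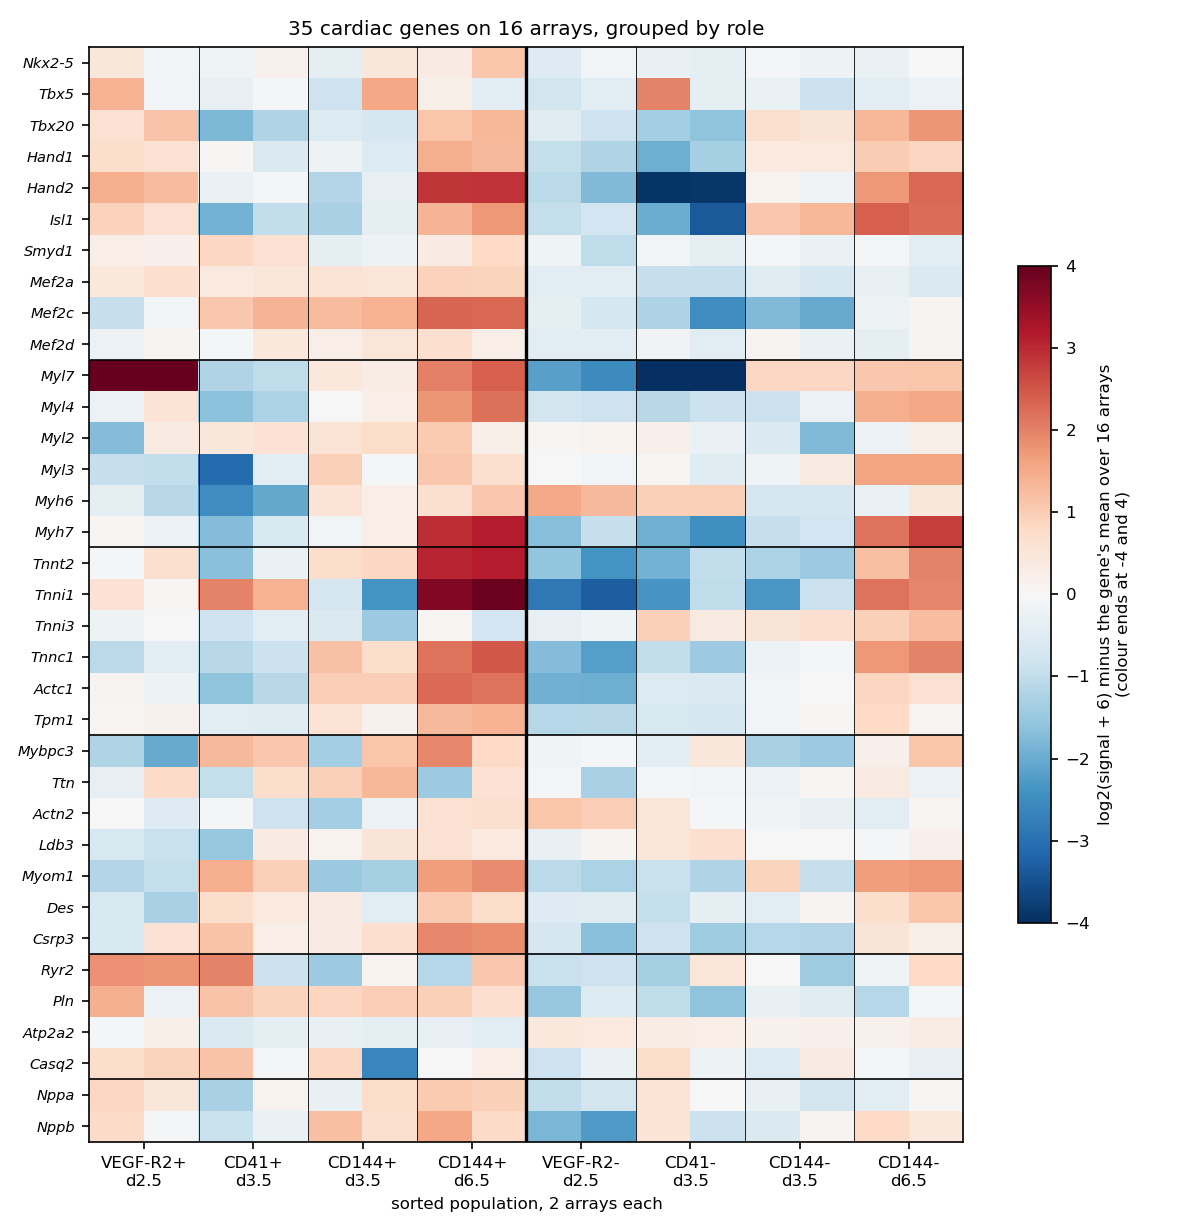
Colour gives log2(signal + 6) minus the gene's mean over the 16 arrays (red above, blue below), with the 35 genes as rows grouped by role and the 16 arrays as columns, 2 for each population. Red cells are most frequent in CD144+ cells at day 6.5, where 19 of the 35 genes had their highest mean, and blue ones in VEGF-R2- cells, with the lowest mean of 13. The like ranking was not made for all genes.

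The mean signal was highest in CD144+ cells at day 6.5 for 19 of the 35 genes and in CD144- cells at day 6.5 for 5. VEGF-R2- cells at day 2.5 held the lowest mean of 13 genes and CD41- cells that of 8, as the plot of all 35 genes by array shows. The mean lay above the median of all values for 29 genes in CD144+ cells at day 6.5 and for 14 in CD41- cells. These counts, and the one that follows, were not made over all genes. Of the 35 genes, 24 passed the test in at least 1 of 16 comparisons, where single comparisons called 2.91% to 36.3% of all genes. The other 11 were Myl2, Nkx2-5, Tbx5, Nppa, Ryr2, Ttn, Smyd1, Mef2d, Actn2, Ldb3 and Casq2, and of these Myl2, Tbx5 and Ryr2 had means at or below the median in every population. This holds for the brightest probe set of each gene. A dimmer probe set of Ldb3, Ryr2, Smyd1, Mef2d and Ttn passed at least 1 test.

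Of the 6 myosin genes, Myl7 was called in the most comparisons. It encodes the regulatory light chain of atrial and early embryonic heart muscle. Its signals were 10854 and 10815 in VEGF-R2+ cells, 289 and 327 in CD41+ cells, 903 and 834 in CD144+ cells at day 3.5 and 2729 and 3570 in CD144+ cells at day 6.5. On the negative arrays they were 144 and 111 in VEGF-R2- cells, 13 and 18.2 in CD41- cells, 1198 and 1195 in CD144- cells at day 3.5 and 1429 and 1451 in CD144- cells at day 6.5. VEGF-R2+ cells held by far the highest values, CD41- cells the lowest, and the populations compared with each other did not overlap. Myl7 was higher in VEGF-R2+ than in VEGF-R2- cells (log2 change 6.35 ± 0.18, adjusted p = 3.19e-12) and in CD41+ than in CD41- cells (log2 change 3.87 ± 0.18, adjusted p = 2.12e-10). Relative to VEGF-R2+ cells it was lower in CD41+ cells (log2 change -5.11 ± 0.18, adjusted p = 1.84e-11) and in CD144+ cells at day 3.5 (log2 change -3.63 ± 0.18, adjusted p = 1.35e-08), and then rose between the CD144+ cells of day 3.5 and day 6.5 (log2 change 1.84 ± 0.18, adjusted p = 1.92e-05). At day 6.5 it was still below its day 2.5 level (log2 change -1.79 ± 0.18, adjusted p = 5.6e-06). These calls held under all alternatives run. The difference between CD144+ and CD144- cells at day 3.5, with means of 869 and 1197, missed the threshold.

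Myh6 and Myh7 encode the alpha and beta myosin heavy chains of heart muscle. Myh6 gave signals of 111 and 65.2 in VEGF-R2+ cells, 21.8 and 31.4 in CD41+ cells, 221 and 181 in CD144+ cells at day 3.5 and 236 and 320.1 in CD144+ cells at day 6.5. Its values on the negative arrays were 436 and 375 in VEGF-R2- cells, 296 and 296 in CD41- cells, 90.6 and 91.4 in CD144- cells at day 3.5 and 124 and 205 in CD144- cells at day 6.5. It was highest on both VEGF-R2- arrays and lowest in CD41+ cells, an order unlike that of Myl7. Both VEGF-R2+ (log2 change -2.17 ± 0.36, adjusted p = 0.000286) and CD41+ cells (log2 change -3.23 ± 0.36, adjusted p = 3.17e-06) were lower than the negative cells of their sort. Only 1 of its 2 probe sets passed these tests.

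Myh7 signals were 95.7 and 76.3 in VEGF-R2+ cells, 23 and 56.8 in CD41+ cells, 82.1 and 108 in CD144+ cells at day 3.5 and 733 and 838 in CD144+ cells at day 6.5. In negative cells they were 23.7 and 44.5 in VEGF-R2- cells, 19.1 and 11.4 in CD41- cells, 44.5 and 50.3 in CD144- cells at day 3.5 and 427 and 649 in CD144- cells at day 6.5. The 4 arrays of day 6.5 lay above the 12 others. Myh7 rose from VEGF-R2+ cells and from CD144+ cells at day 3.5 to CD144+ cells at day 6.5 (log2 change 3.11 ± 0.48, adjusted p = 0.000269 and log2 change 2.98 ± 0.48, adjusted p = 0.0016), and from VEGF-R2- cells to CD144- cells at day 6.5 (log2 change 3.78 ± 0.48, adjusted p = 8.11e-05). It differed past the threshold between positive and negative cells on no day.

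Myl4 and Myl3 encode essential light chains, of atrial and of ventricular and slow muscle. Myl4 was brightest at day 6.5, at 1018 and 1376 in CD144+ cells and 816 and 869 in CD144- cells, and the other 12 arrays lay between 90.5 and 432. A second, dimmer probe set of Myl4 passed no test. Myl3 signals were 56.8 and 53.7 in VEGF-R2+ cells, 8.11 and 80.7 in CD41+ cells, 222 and 107 in CD144+ cells at day 3.5 and 246 and 178 in CD144+ cells at day 6.5, and 111 and 104 in VEGF-R2- cells, 116 and 79 in CD41- cells, 98.7 and 144 in CD144- cells at day 3.5 and 346 and 345 in CD144- cells at day 6.5. The CD41+ arrays had the largest ratio to each other, and the only call for the brightest probe set of Myl3 was CD144+ against CD41+ cells at day 3.5 (log2 change 2.20 ± 0.61, adjusted p = 0.0312), which was lost when 1 array was left out. All 3 of its probe sets passed that test. Of the 3, 2 were also higher in CD144+ cells of day 3.5 and of day 6.5 than in VEGF-R2+ cells and in CD144- cells of day 6.5 than in VEGF-R2- cells, and 1 was higher in CD144+ than CD144- cells at day 3.5 and in CD144- cells of day 3.5 than in VEGF-R2- cells. Myl2, the ventricular regulatory light chain, had population means of 19.8 to 80.6.

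Of the 6 thin filament genes, all but Tnni3 passed the threshold as higher at day 6.5 than at day 2.5, in positive and in negative cells. Actc1, which encodes cardiac alpha actin, the main actin of the early heart, gave signals of 697 and 554 in VEGF-R2+ cells, 205 and 292 in CD41+ cells, 1280 and 1277 in CD144+ cells at day 3.5 and 3092 and 2931 in CD144+ cells at day 6.5. Its negative arrays gave 165 and 159.6 in VEGF-R2- cells, 434 and 426 in CD41- cells, 595 and 648 in CD144- cells at day 3.5 and 1177 and 985 in CD144- cells at day 6.5. The CD144+ arrays of day 6.5 were highest, the VEGF-R2- arrays lowest, and positive and negative arrays of a sort did not overlap. VEGF-R2+ cells exceeded VEGF-R2- cells (log2 change 1.90 ± 0.19, adjusted p = 2.07e-06) and CD144+ exceeded CD144- cells at day 6.5 (log2 change 1.48 ± 0.19, adjusted p = 2.94e-05). The direction was the opposite between CD41+ and CD41- cells (log2 change -0.80 ± 0.19, adjusted p = 0.00333). From VEGF-R2- cells it rose to CD41- cells (log2 change 1.37 ± 0.19, adjusted p = 0.000328), to CD144- cells of day 3.5 (log2 change 1.90 ± 0.19, adjusted p = 5.95e-06) and to CD144- cells of day 6.5 (log2 change 2.69 ± 0.19, adjusted p = 9.59e-08).

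Tnnc1 encodes the calcium-binding troponin of heart and slow muscle. It gave signals of 163 and 253 in VEGF-R2+ cells, 158 and 188 in CD41+ cells, 787 and 572 in CD144+ cells at day 3.5 and 1596 and 1972 in CD144+ cells at day 6.5. In negative cells they were 102 and 70.5 in VEGF-R2- cells, 172 and 123 in CD41- cells, 298 and 329 in CD144- cells at day 3.5 and 1182 and 1403 in CD144- cells at day 6.5. Values at day 6.5 were the highest in either kind of cell. Tnnc1 rose from VEGF-R2+ cells to CD144+ cells at day 3.5 (log2 change 1.70 ± 0.27, adjusted p = 0.000801) and at day 6.5 (log2 change 3.09 ± 0.27, adjusted p = 9.97e-07), and from VEGF-R2- cells to CD144- cells at day 3.5 (log2 change 1.81 ± 0.27, adjusted p = 0.000345) and day 6.5 (log2 change 3.83 ± 0.27, adjusted p = 1.14e-07). CD144+ cells also stood above CD41+ cells of the same day (log2 change 1.93 ± 0.27, adjusted p = 0.000148).

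Tnni1, the slow skeletal troponin I that the embryonic heart uses first, had signals of 138 and 93.3 in VEGF-R2+ cells, 376 and 246 in CD41+ cells, 55.2 and 12.7 in CD144+ cells at day 3.5 and 1249 and 1478 in CD144+ cells at day 6.5. The negative arrays had 7.46 and 3.98 in VEGF-R2- cells, 13.1 and 42.2 in CD41- cells, 13.3 and 48 in CD144- cells at day 3.5 and 432 and 366 in CD144- cells at day 6.5. CD41+ arrays lay above VEGF-R2+ arrays and far above CD41- arrays, and VEGF-R2- arrays were lowest. Tnni1 was higher in VEGF-R2+ than VEGF-R2- cells (log2 change 3.37 ± 0.62, adjusted p = 0.00071) and in CD41+ than CD41- cells (log2 change 3.35 ± 0.62, adjusted p = 0.000515). It rose between the CD144+ cells of day 3.5 and day 6.5 (log2 change 5.33 ± 0.62, adjusted p = 8.23e-05) and from VEGF-R2- cells to CD144- cells of day 6.5 (log2 change 5.12 ± 0.62, adjusted p = 4.76e-05).

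Tnni3 encodes the troponin I that replaces it in the mature heart. Its mean rose from 82.9 in VEGF-R2- cells to 221 in CD144- cells at day 6.5, without overlap, but missed the threshold. In positive cells its mean was 91.6 in VEGF-R2+ cells and 81.3 in CD144+ cells at day 6.5. Its signals were 85.1 and 98.1 in VEGF-R2+ cells, 53.1 and 72.9 in CD41+ cells, 64.9 and 32.9 in CD144+ cells at day 3.5 and 106 and 56.8 in CD144+ cells at day 6.5. They were 78.3 and 87.4 in VEGF-R2- cells, 201 and 131 in CD41- cells, 144 and 163 in CD144- cells at day 3.5 and 201 and 241 in CD144- cells at day 6.5. CD41- and CD144- cells lay above the positive cells of their day without overlap. Tnni3 was lower in CD41+ cells (log2 change -1.30 ± 0.44, adjusted p = 0.0356), in CD144+ cells at day 3.5 (log2 change -1.60 ± 0.44, adjusted p = 0.0168) and in CD144+ cells at day 6.5 (log2 change -1.43 ± 0.44, adjusted p = 0.031), and each of these calls was lost when 1 array was left out.

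Tnnt2 encodes cardiac troponin T, a common marker of heart muscle cells. It gave 63.1 and 106 in VEGF-R2+ cells, 16.6 and 54.1 in CD41+ cells, 111 and 122 in CD144+ cells at day 3.5 and 585 and 624 in CD144+ cells at day 6.5. Its negative arrays gave 18.3 and 7.68 in VEGF-R2- cells, 13.3 and 30.1 in CD41- cells, 23.9 and 20.3 in CD144- cells at day 3.5 and 159 and 275 in CD144- cells at day 6.5. The 4 arrays of day 6.5 were above all others. Tnnt2 rose from VEGF-R2+ cells to CD144+ cells at day 6.5 (log2 change 2.79 ± 0.59, adjusted p = 0.00328), with all 3 of its probe sets past the threshold, and from VEGF-R2- to CD144- cells at day 6.5 (log2 change 3.56 ± 0.59, adjusted p = 0.000776), with 2 of 3. Tpm1, an alpha tropomyosin made in many muscle and non-muscle cells, was bright on every array, from 2112 to 12223. Tpm1 was higher in VEGF-R2+ than VEGF-R2- cells (log2 change 1.26 ± 0.18, adjusted p = 7.56e-05) and rose in the negative cells up to day 6.5 (log2 change 1.55 ± 0.18, adjusted p = 3.11e-05), where all 4 of its probe sets passed. From VEGF-R2+ cells to CD144+ cells at day 6.5, 1 of the 4 passed. In the CD41 sort and the CD144 sort of day 3.5, 1 of its dimmer probe sets was lower in the positive cells.

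**Figure D2:**
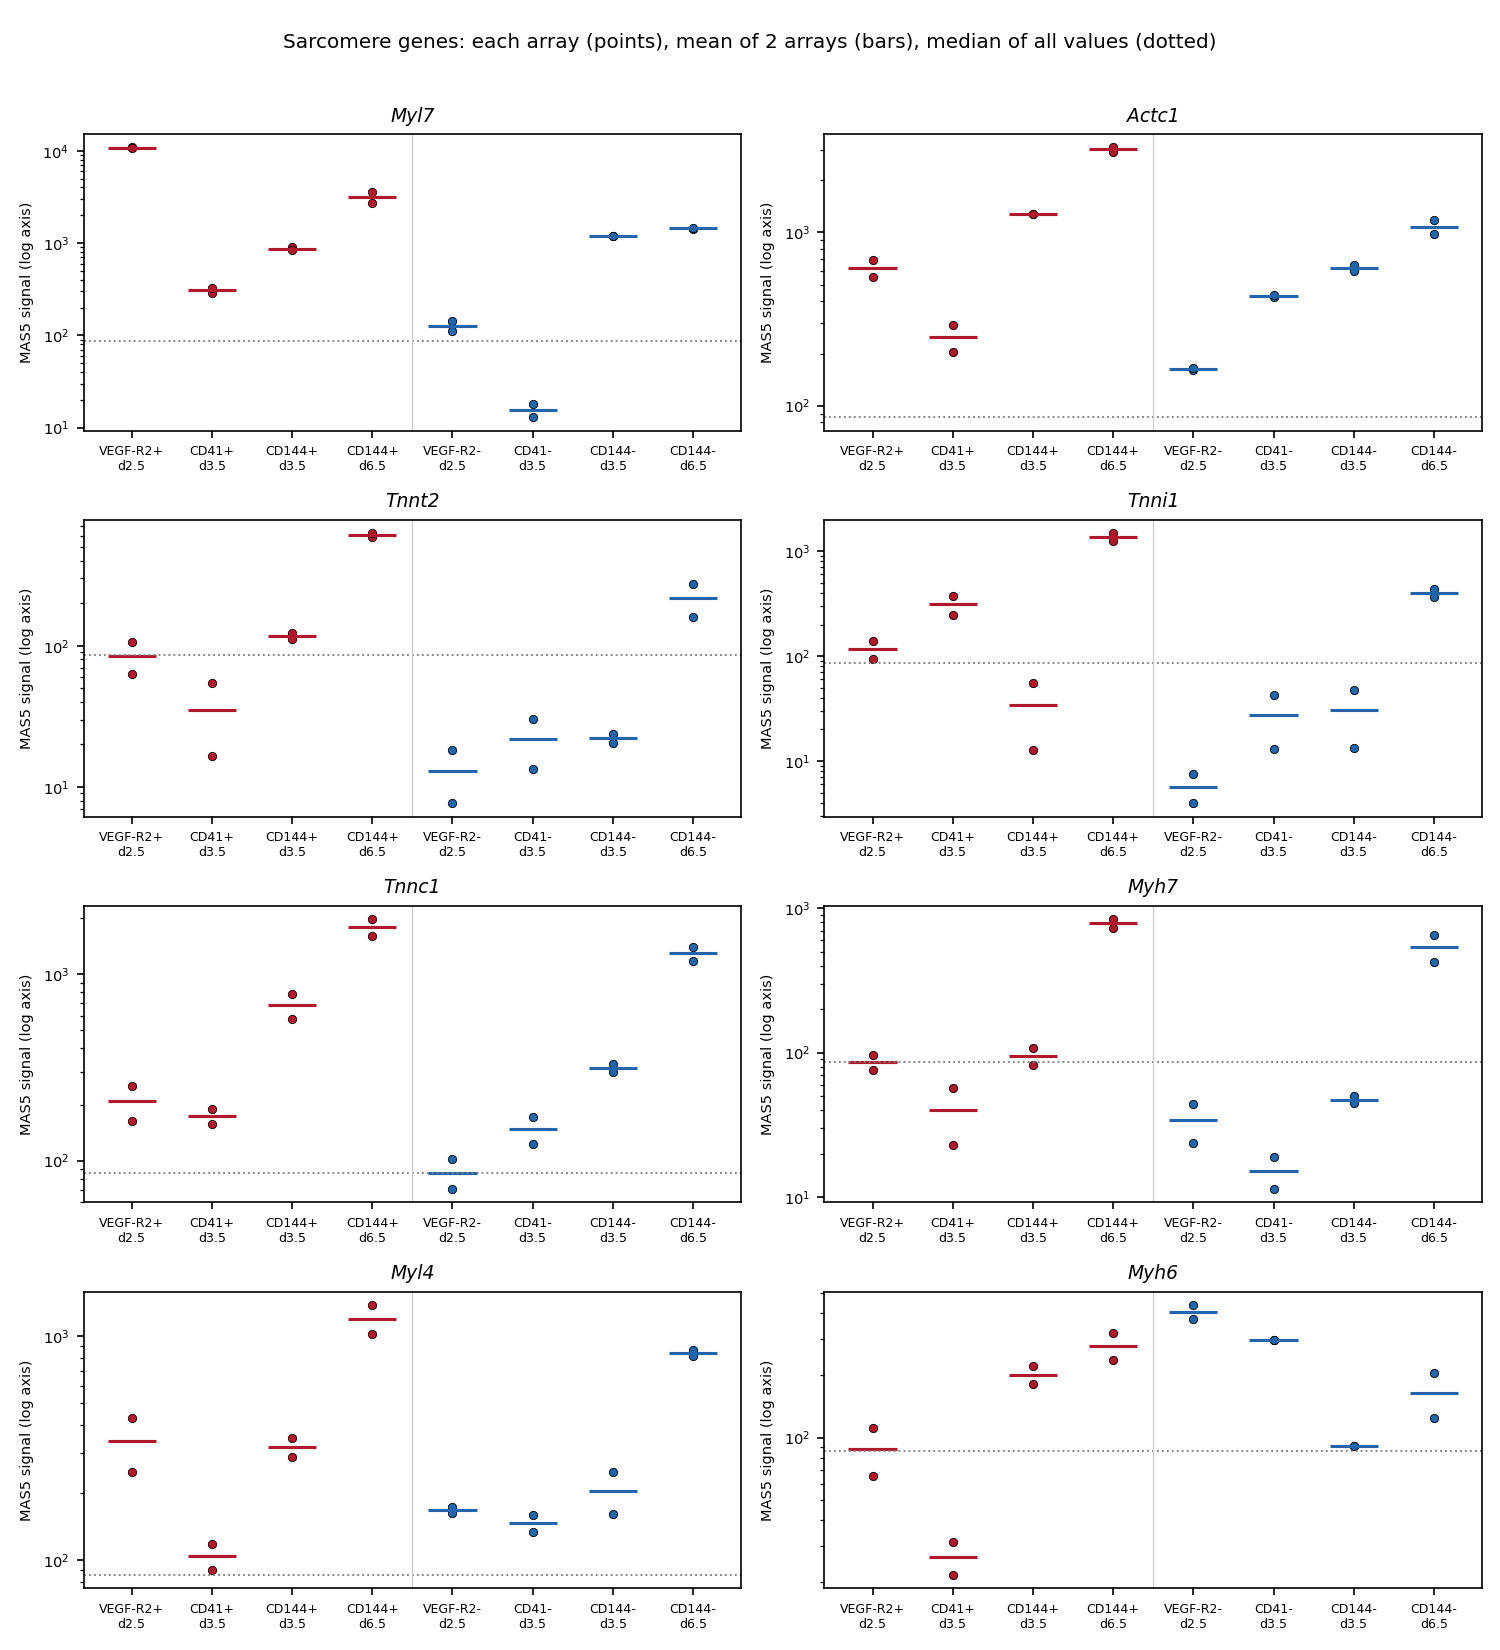
MAS5 signal (log axis) of contractile genes by population, 4 positive in red and 4 negative in blue, with points for arrays, bars for the mean of 2 arrays and a dotted line at the median of all values, 85.8. Myl7 falls from 10835 in VEGF-R2+ cells to 308 in CD41+ cells, and Myh7, Tnnt2 and Tnni1 reach their highest means in CD144+ cells at day 6.5.

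Of the 7 scaffold genes, Des, Myom1, Mybpc3 and Csrp3 passed a test. Des encodes desmin, the intermediate filament of all muscle types. Its signals were 153 and 94.8 in VEGF-R2+ cells, 399 and 323 in CD41+ cells, 308 and 179 in CD144+ cells at day 3.5 and 509 and 404 in CD144+ cells at day 6.5. In the negative cells they were 169 and 173 in VEGF-R2- cells, 122 and 184 in CD41- cells, 175 and 262 in CD144- cells at day 3.5 and 401 and 534 in CD144- cells at day 6.5. CD41+ arrays and all day 6.5 arrays lay above both VEGF-R2+ arrays. Des rose from VEGF-R2+ cells to CD144+ cells at day 6.5 (log2 change 1.86 ± 0.33, adjusted p = 0.000845), a call that no omitted array removed, with 1 of 2 probe sets past the threshold.

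Myom1 encodes myomesin, which ties thick filaments together at the M-band. It gave 6.01 and 7.99 in VEGF-R2+ cells, 68.5 and 46.3 in CD41+ cells, 3.80 and 4.79 in CD144+ cells at day 3.5 and 81 and 94.2 in CD144+ cells at day 6.5. Negative arrays gave 6.99 and 5.35 in VEGF-R2- cells, 8.78 and 5.69 in CD41- cells, 44.6 and 8.47 in CD144- cells at day 3.5 and 79.6 and 83.5 in CD144- cells at day 6.5. Values above the 25th percentile of all array values, 23.4, were found in CD41+ cells, at day 6.5 and on 1 of the 2 CD144- arrays of day 3.5. Myom1 rose from VEGF-R2+ cells to CD144+ cells at day 6.5 (log2 change 2.85 ± 0.67, adjusted p = 0.00714) and this call, too, held with each array left out.

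Mybpc3 encodes cardiac myosin-binding protein C of the thick filament. Its signals were 20.1 and 8.75 in VEGF-R2+ cells, 140.1 and 119 in CD41+ cells, 17.2 and 124 in CD144+ cells at day 3.5 and 219 and 98.8 in CD144+ cells at day 6.5, and 48.4 and 51.2 in VEGF-R2- cells, 37.9 and 76.2 in CD41- cells, 18.3 and 15.6 in CD144- cells at day 3.5 and 62.3 and 123 in CD144- cells at day 6.5 on the negative arrays. Its duplicates disagreed in CD144+ cells of day 3.5 and in CD144+ cells of day 6.5. Csrp3, a Z-disc LIM protein, had means of 14.1 to 161 and was highest in CD144+ cells at day 6.5. Actn2 (sarcomeric alpha-actinin), Ldb3 (a Z-disc PDZ-LIM protein) and Ttn (titin, the spring of the sarcomere) passed no test with their brightest probe set. Their population means were 51.5 to 186, 45.3 to 123 and 27.4 to 104. Of the 3 probe sets of Ldb3, 1 was lower in VEGF-R2+ and in CD41+ cells than in their negative cells. Also 1 of the 3 was higher in CD144+ cells of both days than in VEGF-R2+ cells, and at day 3.5 than in CD41+ cells. For Ttn, 1 of 6 was lower in VEGF-R2+ than VEGF-R2- cells.

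Of the calcium handling genes, Atp2a2 encodes the pump that returns calcium to the sarcoplasmic or endoplasmic reticulum in heart and many other cells. It was bright throughout, with means from 4814 in CD41+ cells to 8930 in VEGF-R2- cells, and lower in CD41+ than CD41- cells (log2 change -0.77 ± 0.12, adjusted p = 0.000148) and in CD144+ than CD144- cells at day 6.5 (log2 change -0.61 ± 0.12, adjusted p = 0.00185). In these comparisons 3 of its 6 probe sets passed, all as lower. Pln encodes phospholamban, the inhibitor of that pump. It was higher in CD41+ cells, at 123 and 102, than in CD41- cells, at 23 and 13.1 (log2 change 2.32 ± 0.64, adjusted p = 0.0107), a call lost when 1 of the arrays was left out. Ryr2, the calcium release channel, and Casq2, the calcium store protein, passed no test with their brightest probe set, with means of 7.63 to 79.1 and 34.8 to 96.2. The dimmer of the 2 probe sets of Ryr2 was higher in CD144+ cells at day 6.5 than in VEGF-R2+ cells. Nppa and Nppb encode the natriuretic peptides ANP and BNP of heart muscle. Nppa passed no test (means 19.8 to 87.7). Nppb was lowest in VEGF-R2- cells, at 11.2 and 6.66, against 98.2 and 52.4 in VEGF-R2+ cells (log2 change 2.40 ± 0.62, adjusted p = 0.00846) and 101 and 75.8 in CD144- cells at day 6.5 (log2 change 2.67 ± 0.62, adjusted p = 0.0106), and both calls were lost without 1 of the arrays.

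Of the 10 regulators, Hand1, Hand2, Isl1 and Tbx20 had means that were high in VEGF-R2+ cells, lower in both positive populations of day 3.5 and higher than in VEGF-R2+ cells at day 6.5, and lowest among negative cells in CD41- cells. Hand1, a basic helix-loop-helix factor of the first heart field and extraembryonic mesoderm, gave 377 and 359.5 in VEGF-R2+ cells, 240.0 and 153 in CD41+ cells, 200.3 and 158 in CD144+ cells at day 3.5 and 638 and 581 in CD144+ cells at day 6.5. The negative arrays gave 117 and 97.7 in VEGF-R2- cells, 55.7 and 88 in CD41- cells, 306 and 308 in CD144- cells at day 3.5 and 474 and 425 in CD144- cells at day 6.5. Positive and negative arrays did not overlap at day 2.5, nor between CD41+ and CD41- cells. Hand1 was higher in VEGF-R2+ than VEGF-R2- cells (log2 change 1.73 ± 0.28, adjusted p = 0.000254) and CD41+ than CD41- cells (log2 change 1.38 ± 0.28, adjusted p = 0.00125), and it rose between the CD144+ cells of day 3.5 and day 6.5 (log2 change 1.74 ± 0.28, adjusted p = 0.00162). A second, dimmer probe set of Hand1 passed the last of these and had log2 changes of -0.62 and -0.30 in the others, and it alone was lower in CD144+ than CD144- cells at day 3.5.

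Hand2, the related factor of the second heart field and right ventricle, had signals of 397 and 352 in VEGF-R2+ cells, 117 and 134 in CD41+ cells, 59.1 and 111 in CD144+ cells at day 3.5 and 1076 and 1100 in CD144+ cells at day 6.5. In the negative cells they were 63.4 and 37.6 in VEGF-R2- cells, 3.68 and 3.94 in CD41- cells, 156 and 129 in CD144- cells at day 3.5 and 491 and 725 in CD144- cells at day 6.5. Its CD41- values lay below 6, the 10th percentile of all array values. Hand2 was higher in VEGF-R2+ than VEGF-R2- cells (log2 change 2.79 ± 0.37, adjusted p = 3.69e-05). CD41+ cells were above CD41- cells (log2 change 3.74 ± 0.37, adjusted p = 8.86e-07), for all 3 of its probe sets. In each other comparison of Hand2, 1 probe set or none passed.

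Isl1, the LIM-homeodomain factor of second heart field progenitors, gave 264 and 211 in VEGF-R2+ cells, 32.7 and 66.5 in CD41+ cells, 52 and 107 in CD144+ cells at day 3.5 and 359 and 473 in CD144+ cells at day 6.5. It gave 68.6 and 78.2 in VEGF-R2- cells, 30.5 and 8.04 in CD41- cells, 296 and 354 in CD144- cells at day 3.5 and 742 and 667 in CD144- cells at day 6.5 in the negative cells. CD144- cells of both days lay above the CD144+ cells of their day without overlap. Isl1 rose in the negative cells from day 2.5 to day 6.5 (log2 change 3.16 ± 0.46, adjusted p = 0.000271). Both of its probe sets passed.

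Tbx20, a T-box factor needed for growth of the heart tube, had signals of 259 and 373 in VEGF-R2+ cells, 44 and 68 in CD41+ cells, 112 and 103 in CD144+ cells at day 3.5 and 363 and 428 in CD144+ cells at day 6.5. The negative arrays had 118 and 90.5 in VEGF-R2- cells, 61.7 and 50.6 in CD41- cells, 263 and 238 in CD144- cells at day 3.5 and 428 and 575 in CD144- cells at day 6.5. Values at day 6.5 were high in either fraction, and the groups met at 428. Tbx20 was higher in VEGF-R2+ than VEGF-R2- cells (log2 change 1.54 ± 0.32, adjusted p = 0.00213) and rose in the negative cells to day 6.5 (log2 change 2.20 ± 0.32, adjusted p = 0.000295), each on 1 of 3 probe sets.

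Mef2c and Mef2a encode MADS-box factors of muscle that also act in endothelium and blood. Mef2c gave 81.1 and 148 in VEGF-R2+ cells, 343 and 419.7 in CD41+ cells, 390.5 and 423 in CD144+ cells at day 3.5 and 815 and 807 in CD144+ cells at day 6.5. The negative arrays gave 120.1 and 96.6 in VEGF-R2- cells, 64.4 and 23.2 in CD41- cells, 42.3 and 35.3 in CD144- cells at day 3.5 and 137 and 172 in CD144- cells at day 6.5. Unlike the Hand genes it was not high in VEGF-R2+ cells, and from day 3.5 on each positive array exceeded each negative one. Mef2c was higher in CD41+ than CD41- cells (log2 change 3.09 ± 0.40, adjusted p = 1.45e-05), in CD144+ than CD144- cells at day 3.5 (log2 change 3.21 ± 0.40, adjusted p = 2.75e-05) and at day 6.5 (log2 change 2.35 ± 0.40, adjusted p = 0.000414), with 4, 3 and 3 of its 5 probe sets past the threshold. From VEGF-R2+ cells to CD144+ cells at day 6.5 it rose as well (log2 change 2.82 ± 0.40, adjusted p = 0.000108).

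Mef2a gave 1560 and 1862 in VEGF-R2+ cells, 1539 and 1639 in CD41+ cells, 1729 and 1625 in CD144+ cells at day 3.5 and 2228 and 2159 in CD144+ cells at day 6.5. In negative cells it gave 854 and 846 in VEGF-R2- cells, 619 and 611 in CD41- cells, 827 and 729.5 in CD144- cells at day 3.5 and 943 and 784 in CD144- cells at day 6.5. Each positive array lay above each negative array. The log2 changes were 1.0 (adjusted p = 8.18e-05) in the VEGF-R2 sort, 1.36 (adjusted p = 1.89e-06) in the CD41 sort, and 1.10 (adjusted p = 4.69e-05) and 1.34 (adjusted p = 5.84e-06) in the CD144 sorts of day 3.5 and day 6.5. Only 1 or 2 of its 6 probe sets passed in any of these comparisons, and the one of largest variance had log2 changes of -2.02, -1.33 and -0.63 in VEGF-R2+ cells and in CD144+ cells at day 3.5 and day 6.5.

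The other regulators passed no test with their brightest probe set, while dimmer ones of Smyd1 and Mef2d passed in some comparisons. Nkx2-5, the homeodomain factor that marks committed cardiac progenitors, had signals of 125 and 82.4 in VEGF-R2+ cells, 78.5 and 101 in CD41+ cells, 66.1 and 124 in CD144+ cells at day 3.5 and 112 and 198 in CD144+ cells at day 6.5, and 60.6 and 82.4 in VEGF-R2- cells, 70.8 and 68.3 in CD41- cells, 84.7 and 75.8 in CD144- cells at day 3.5 and 72.6 and 86.8 in CD144- cells at day 6.5 on the negative arrays. Its largest value was on 1 array of CD144+ cells at day 6.5, and the other array there overlapped with VEGF-R2+ and day 3.5 CD144+ cells. Population means were 9.41 to 49.3 for Tbx5, a T-box factor of the first heart field, 77.1 to 196 for Smyd1, a muscle histone methyltransferase, and 825 to 1576 for Mef2d.

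**Figure D3:**
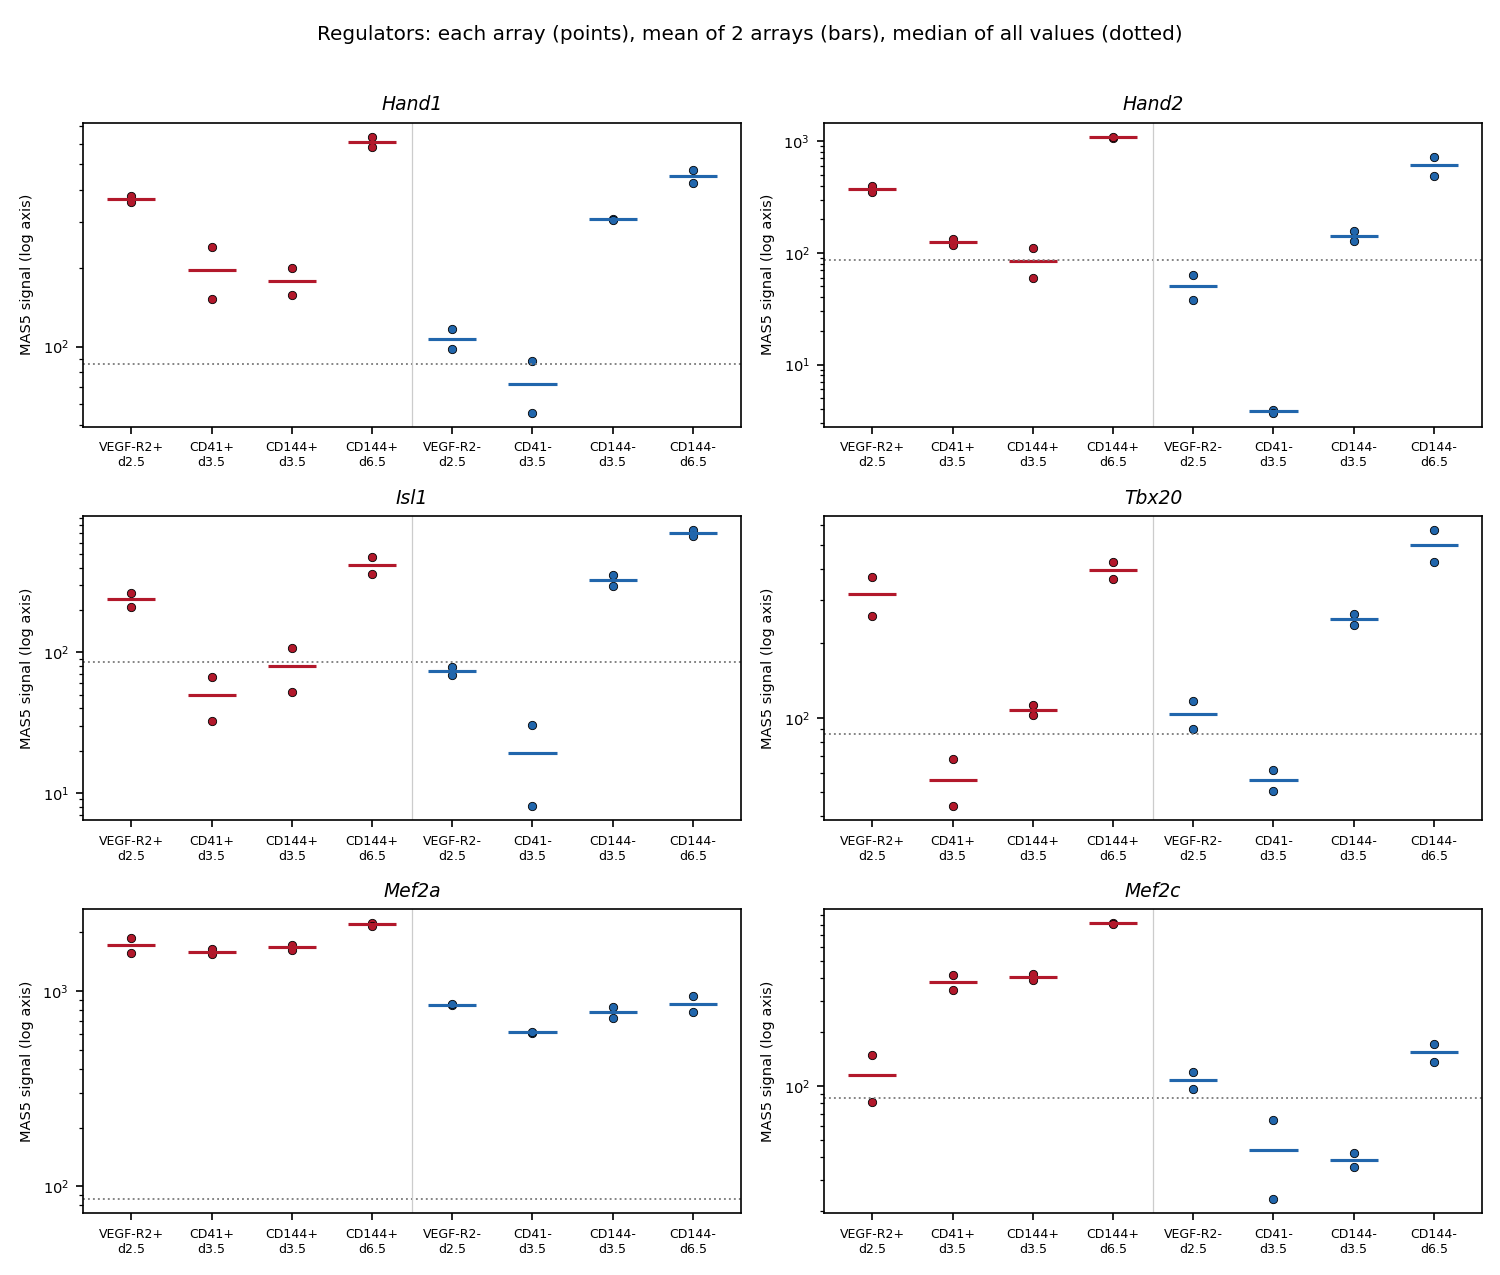
MAS5 signal (log axis) of 6 regulators by population, 4 positive in red and 4 negative in blue, with points for arrays, bars for the mean of 2 arrays and a dotted line at the median of all values. Hand1, Hand2, Isl1 and Tbx20 have lower means in both positive populations of day 3.5, which were sorted by different markers, than in VEGF-R2+ cells. Mef2c has its highest mean, 811, in CD144+ cells at day 6.5.

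The first comparison asked which genes mark the earliest VEGF-R2+ cells. Some contractile and regulatory genes were higher in them: 13 of the 35 genes were higher and 1 was lower, where 11.1% of all probe sets were higher and 13.8% lower, and 16% and 13.7% of all genes at 1 probe set each. The median log2 change of the 35 genes was 1.17, against 0.08 over all probe sets. Of the 6 thin filament genes 5 were higher (Tnnt2, Tnni1, Tnnc1, Actc1 and Tpm1), with 2.27 (adjusted p = 0.00875) for Tnnt2 and 1.20 (adjusted p = 0.00323) for Tnnc1. Of the regulators 5 were higher, among them Isl1 at 1.61 (adjusted p = 0.0165). Myl7, Myl4 (0.95, adjusted p = 0.0233) and Nppb were higher too, and Myh6 was lower. None of the 7 scaffold and 4 calcium handling genes passed the test, with an unadjusted p under 0.05 for Actn2, Ryr2, Pln and Atp2a2. Among their dimmer probe sets, 1 of Ldb3, 1 of Ttn and 2 of Atp2a2 were lower. The calls of Myl4, Tnnt2, Tnnc1, Isl1 and Nppb were lost without 1 of the 4 arrays, at adjusted p between 0.0563 and 0.258, and 9 genes were called without VEGF-R2- replicate 2.

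In CD41+ cells 10 genes were higher and 4 lower than in CD41- cells, where 13.5% of probe sets were higher and 15.8% lower, and the medians were 0.47 for the list and 0.10 for all probe sets. Of all genes at 1 probe set each, 19.2% were higher and 17.2% lower. Higher were Myl7, Tnni1, the scaffold genes Myom1 (2.25, adjusted p = 0.017), Csrp3 (1.83, adjusted p = 0.0402) and Des (1.23, adjusted p = 0.00935), Pln, and the regulators Hand1, Hand2, Mef2a and Mef2c. Lower were Myh6, Tnni3, Actc1 and Atp2a2. The calls of Tnni3, Pln, Myom1, Des and Csrp3 were lost without 1 of CD41+ replicate 1 or the CD41- arrays, at adjusted p of 0.0557 to 0.255.

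In the CD144 sort of day 3.5, 6 genes were higher and 4 lower, against 9.49% and 10.5% of probe sets and 13.7% and 10.3% of genes, with medians of 0.40 for the list and 0.10 for all probe sets. Myh6 (1.09, adjusted p = 0.0416), Tnnt2 (2.13, adjusted p = 0.0159), Tnnc1 (1.09, adjusted p = 0.00811), Actc1 (1.03, adjusted p = 0.00072), Mef2a and Mef2c were higher. Tnni3, Atp2a2 (-0.50, adjusted p = 0.00788), Tbx20 (-1.18, adjusted p = 0.0161) and Isl1 (-2.03, adjusted p = 0.00451) were lower. Only the calls of Actc1, Mef2a and Mef2c held with each array left out. The number called was 4 without either CD144- array and 6 without CD144+ replicate 2, and the lost calls had adjusted p of 0.0503 to 0.164.

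In the CD144 sort of day 6.5, 5 genes were higher in CD144+ than in CD144- cells and 2 lower, where 9.41% and 10.1% of probe sets and 13.4% and 11.9% of genes were. The medians were 0.58 and 0.07. Myl7 (1.11, adjusted p = 0.000356), Actc1, Tpm1 (0.92, adjusted p = 0.00146), Mef2a and Mef2c were higher, and Tnni3 and Atp2a2 were lower. Tnnt2, Tnni1 and Myh7, with means of 605, 1364 and 785 in CD144+ and 217, 399 and 538 in CD144- cells, did not pass. Of the 3 probe sets of Tnnt2, 1 that was not the brightest was called higher. Tpm1 was the one gene whose probe sets were called in opposite directions here, with -1.18 (adjusted p = 0.00166) for another probe set. The Tnni3 call was lost without CD144+ replicate 2 or either CD144- array, at adjusted p of 0.0879 to 0.219.

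**Figure D4:**
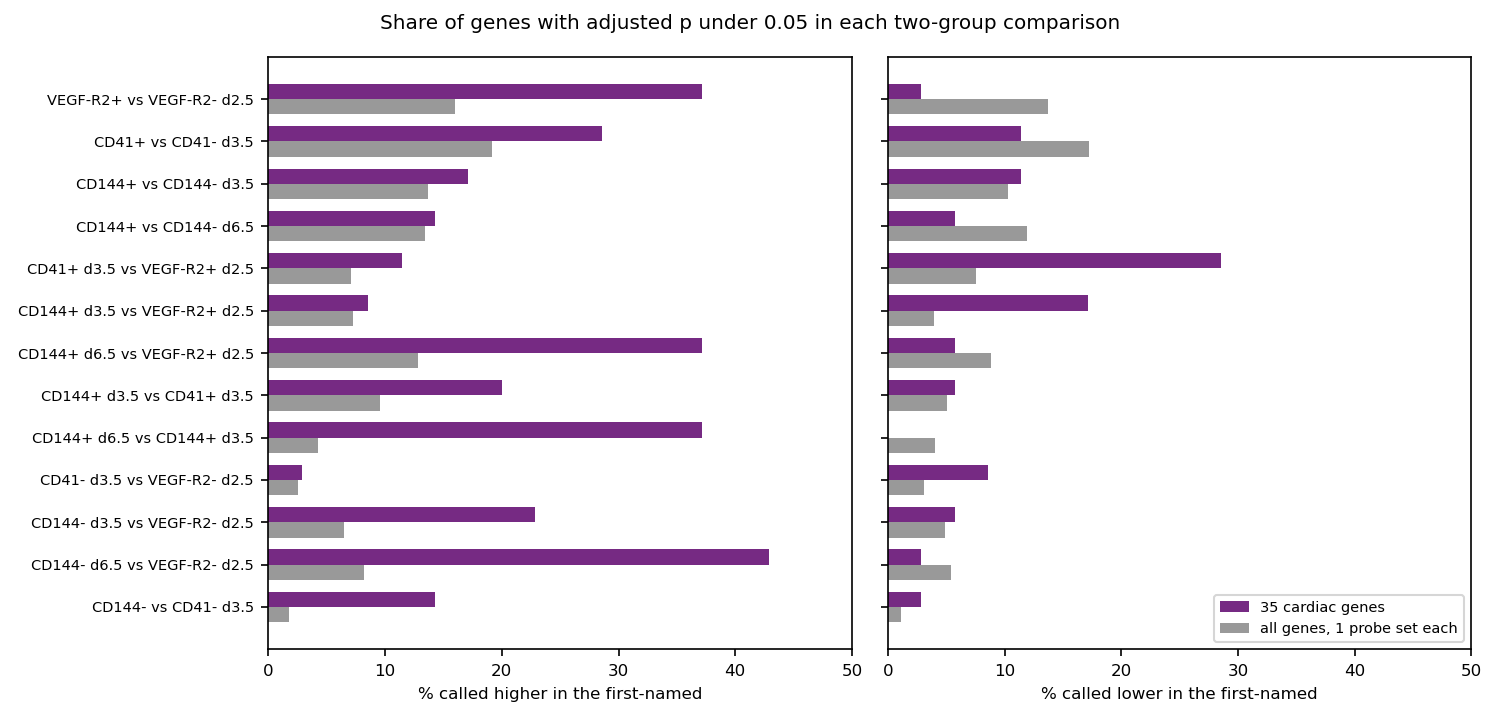
Percent of genes with an adjusted p under 0.05, higher in one panel and lower in the other, in each comparison of 2 populations, for the 35 cardiac genes (purple) and for all genes at 1 probe set each (grey). The purple and grey bars lie furthest apart for genes higher at day 6.5, as in CD144+ cells from day 3.5 to day 6.5, where 13 of 35 genes and 4.23% of all genes were higher.

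From VEGF-R2+ to CD41+ cells, 4 of the 10 regulators fell and 1 rose, 3 of the 6 myosin genes and 2 of the 6 thin filament genes fell, and 3 of the 7 scaffold genes rose. In all, 4 genes were higher and 10 lower, against 5.02% and 4.82% of probe sets and 7.04% and 7.59% of genes, and the medians were -0.51 and 0.06. The 10 were Myl7, Myl4 (-1.61, adjusted p = 0.00144), Myh6 (-1.51, adjusted p = 0.0118), Actc1 (-1.32, adjusted p = 0.000156), Tpm1, Atp2a2 and the regulators Tbx20 (-2.38, adjusted p = 0.000117), Isl1 (-2.19, adjusted p = 0.00504), Hand2 (-1.54, adjusted p = 0.0125) and Hand1 (-0.92, adjusted p = 0.0493). Mybpc3 (2.78, adjusted p = 0.0218), Myom1 (2.27, adjusted p = 0.0399), Des (1.53, adjusted p = 0.00619) and Mef2c (1.73, adjusted p = 0.00896) rose. Only the calls of Myl7, Myl4, Actc1 and Tbx20 held with each array left out, and the lost calls had adjusted p of 0.0557 to 0.245. The number called was 8 without either VEGF-R2+ array and 6 without CD41+ replicate 1. A second probe set put Myl4 at 1.55, Myh6 at 0.21 and Hand2 at 0.022, none past the threshold.

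From VEGF-R2+ cells to CD144+ cells at day 3.5, 4 of the 10 regulators fell and 1 rose, and 2 of the 6 thin filament genes rose. Here 3 genes were higher and 6 lower, against 4.87% and 2.84% of probe sets and 7.21% and 3.92% of genes, with medians of -0.02 and 0.05. Tnnc1, Actc1 (1.03, adjusted p = 0.00221) and Mef2c (1.83, adjusted p = 0.0084) rose. Myl7, Hand2 (-2.12, adjusted p = 0.00176), Isl1 (-1.58, adjusted p = 0.0454), Tbx20 (-1.48, adjusted p = 0.00917), Hand1 (-1.02, adjusted p = 0.0353) and Atp2a2 (-0.42, adjusted p = 0.0461) fell. The calls of Tbx20, Hand1, Isl1, Atp2a2 and Mef2c were lost without 1 of the 4 arrays, at adjusted p of 0.0548 to 0.291, and 5 genes were called without VEGF-R2+ replicate 2 or CD144+ replicate 2. Set directly against CD41+ cells of the same day, CD144+ cells had 7 genes higher and 2 lower, against 6.06% and 3.72% of probe sets and 9.59% and 5.07% of genes (medians 0.15 and -0.02). Myl7 (1.48, adjusted p = 4.6e-05), Myl4 (1.57, adjusted p = 0.00178), Myl3, Myh6 (2.68, adjusted p = 0.000101), Tnnc1, Actc1 (2.36, adjusted p = 5.58e-07) and Tpm1 (0.82, adjusted p = 0.00695) were higher, all of them myosin or thin filament genes, and Tnni1 (-3.20, adjusted p = 0.00273) and Myom1 (-2.60, adjusted p = 0.0189) lower. The calls of Myl3, Tnni1, Tpm1 and Myom1 were lost without CD41+ replicate 1 or a CD144+ array, at adjusted p of 0.0516 to 0.353.

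By day 6.5 most thin filament genes, Myl4 and both heavy chain genes had risen in the positive cells. CD144+ cells of day 6.5 had 13 genes higher and 2 lower than VEGF-R2+ cells, against 9.4% and 6.1% of probe sets and 12.8% and 8.86% of genes, with medians of 0.89 and 0.11. All thin filament genes but Tnni3 rose, by 1.22 for Tpm1 to 3.51 (adjusted p = 0.000816) for Tnni1. Myl4 (1.84, adjusted p = 3e-04), Myh6 (1.62, adjusted p = 0.00485), Myh7, Mybpc3 (2.97, adjusted p = 0.0101), Myom1, Des, Hand2 (1.52, adjusted p = 0.009) and Mef2c rose as well, and Myl7 and Atp2a2 (-0.48, adjusted p = 0.0133) fell. The calls of Myh6, Hand2, Atp2a2 and Mybpc3 were lost without 1 of VEGF-R2+ replicate 2 or the CD144+ arrays, at adjusted p of 0.0527 to 0.15. A second probe set put Myl4 at -0.037, and 1 of the 2 probe sets of Myh6 passed.

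Against CD144+ cells of day 3.5, those of day 6.5 had 13 genes higher and none lower, where 3.2% and 2.64% of probe sets and 4.23% and 4% of genes were, and the medians were 0.98 and 0.05. Besides Tnni1, Myh7, Hand1 and Myl7, these were Hand2 (3.65, adjusted p = 2.04e-05), Isl1 (2.37, adjusted p = 0.00599), Tbx20 (1.82, adjusted p = 0.00325), Tnnt2 (2.31, adjusted p = 0.0283), Tnnc1 (1.39, adjusted p = 0.00567), Actc1 (1.23, adjusted p = 0.000889), Myl4 (1.88, adjusted p = 0.00104), Tpm1 (0.98, adjusted p = 0.00411) and Myom1 (3.18, adjusted p = 0.00972). At an unadjusted p under 0.05 in limma, 19 genes were higher and 0 lower. The calls of Tnnt2, Tnnc1, Isl1, Tpm1 and Myom1 were lost without 1 of the 4 arrays, at adjusted p of 0.0514 to 0.115.

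**Figure D5:**
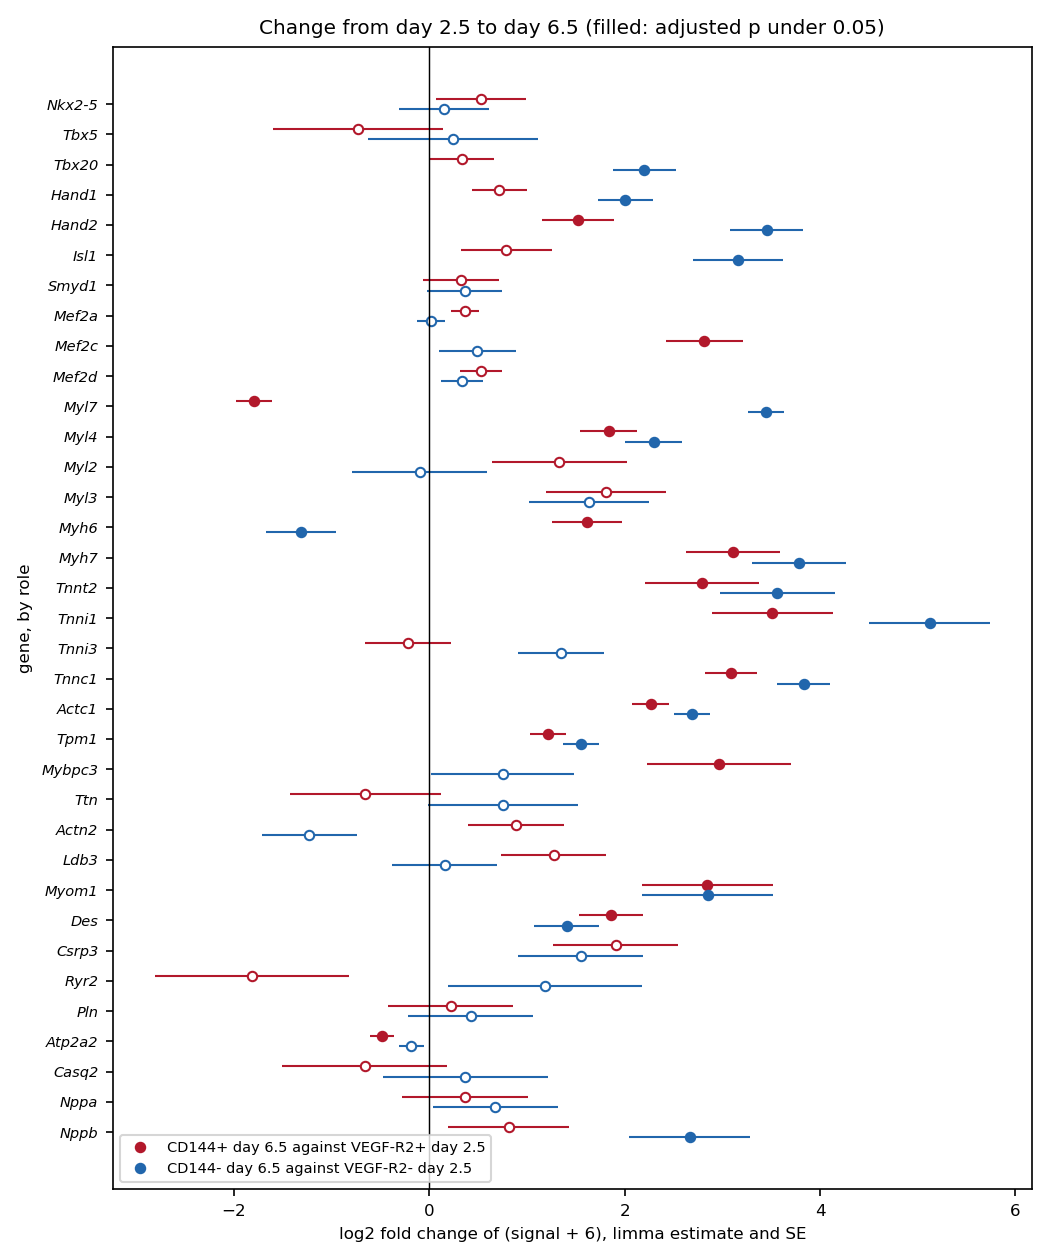
Log2 change of (signal + 6) with its standard error from day 2.5 to day 6.5, for the 35 genes by role, between the positive populations (VEGF-R2+ to CD144+, red) and between the negative ones (VEGF-R2- to CD144-, blue), with filled points where the adjusted p was under 0.05. Thin filament genes other than Tnni3 lie to the right with filled points in both, while Myl7 is at -1.79 in positive and 3.45 in negative cells.

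Among negative cells, few genes differed between VEGF-R2- and CD41- cells and more between VEGF-R2- and CD144- cells. CD41- cells had 1 gene higher (Actc1) and 3 lower than VEGF-R2- cells, against 1.57% and 1.89% of probe sets and 2.51% and 3.09% of genes, with medians of 0.05 and 0.06. The 3 were Myl7 (-2.63, adjusted p = 2.81e-07), Hand2 (-2.49, adjusted p = 0.000825) and Isl1 (-1.81, adjusted p = 0.0383), of which Isl1 was lost without either VEGF-R2- array or CD41- replicate 2 (adjusted p of 0.197 to 0.463). CD144- cells of day 3.5 had 8 genes higher and 2 lower than VEGF-R2- cells, against 3.9% and 3.24% of probe sets and 6.49% and 4.93% of genes, with medians of 0.45 and 0.02. Higher were Myl7 (3.18, adjusted p = 3.67e-08), Tnnc1, Actc1, Tpm1 (1.10, adjusted p = 0.000817), Isl1 (2.06, adjusted p = 0.00979), Hand1 (1.47, adjusted p = 0.00314), Hand2 (1.43, adjusted p = 0.0247) and Tbx20 (1.23, adjusted p = 0.0272), and lower were Myh6 (-2.08, adjusted p = 0.00129) and Mef2c (-1.35, adjusted p = 0.0487). The calls of the 4 higher regulators and of Mef2c were lost without 1 of the 4 arrays, at adjusted p of 0.0568 to 0.322, and 5 genes were called without VEGF-R2- replicate 2 and 6 without either CD144- array. A second probe set put Hand2 at -1.18.

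CD144- cells of day 6.5 had the most calls: 15 genes higher and 1 lower than VEGF-R2- cells, against 5.05% and 3.72% of probe sets and 8.2% and 5.44% of genes, with medians of 1.35 and 0.08. Higher were Myl7 (3.45, adjusted p = 5.06e-09), Myl4 (2.30, adjusted p = 7.08e-05), Myh7, 5 thin filament genes with Tnni1 at 5.12 (adjusted p = 4.76e-05), Myom1 (2.85, adjusted p = 0.0114), Des (1.41, adjusted p = 0.0116), Nppb, Isl1, Hand2 (3.45, adjusted p = 1.37e-05), Hand1 (2.01, adjusted p = 0.000198) and Tbx20, and Myh6 was lower (-1.31, adjusted p = 0.0293). The calls of Myh6, Nppb, Myom1 and Des were lost without 1 of the 4 arrays, at adjusted p of 0.052 to 0.239.

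A comparison of the negative fractions of day 3.5 was added after the values had been seen. CD144- cells stood above CD41- cells in 5 genes and below in 1, against 1.04% and 0.711% of probe sets and 1.8% and 1.11% of genes, with medians of 0.09 and -0.03. Higher were Myl7 (5.81, adjusted p = 1.37e-11), Hand2 (3.92, adjusted p = 9.79e-06), Isl1 (3.86, adjusted p = 0.000106), Tbx20 (2.05, adjusted p = 0.00184) and Hand1 (2.04, adjusted p = 0.00051). Myh6 was lower (-1.64, adjusted p = 0.0238), a call lost without any 1 of the 4 arrays (adjusted p of 0.174 to 0.211), and only Myl7 passed when the probe set of second highest mean was used. Kdr had a mean of 870 in CD144- and of 74.3 in CD41- cells, and its part in the difference was not tested.

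The course of positive and negative cells from day 2.5 on was set against each other in 3 interaction tests. Each subtracts the change in negative cells from the change in positive cells, so arrays of both sets enter. A difference between these sets of arrays cancels only where it is the same on the log2 scale on both days, which was not tested. Between the CD41 sort of day 3.5 and day 2.5 the change differed for 5 genes (against 4.73% of probe sets and 7.73% of genes). Actc1 (-2.70 ± 0.26, adjusted p = 7.95e-06), Myl7 (-2.48 ± 0.26, adjusted p = 1.69e-05) and Tpm1 (-1.07, adjusted p = 0.0206) changed downward relative to the negative cells, and Mef2c (3.06, adjusted p = 0.00305) and Des (1.71, adjusted p = 0.0448) upward. The calls of Tpm1 and Des were lost without 1 of 7 of the 8 arrays (CD41+ replicate 2 being the exception), at adjusted p of 0.0504 to 0.211, and 3 genes were called without VEGF-R2+ replicate 2 or any of the 4 VEGF-R2- and CD41- arrays. The other probe set of Des gave -0.22.

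Between the CD144 sort of day 3.5 and day 2.5 the change differed for 8 genes (against 5.3% of probe sets and 8.34% of genes). Myl7 (-6.81, adjusted p = 2.88e-10), Isl1 (-3.64, adjusted p = 0.0023), Hand2 (-3.55, adjusted p = 0.000404), Tnni1 (-3.30, adjusted p = 0.0357), Tbx20 (-2.71, adjusted p = 0.00141) and Hand1 (-2.50, adjusted p = 0.000884) went down relative to the negative cells, in which the 4 regulators were higher at day 3.5 than at day 2.5. Myh6 (3.25, adjusted p = 0.000697) and Mef2c (3.18, adjusted p = 0.00198) went up. The Tnni1 call was lost without either array of day 2.5 in each fraction or replicate 2 of either fraction at day 3.5, at adjusted p of 0.0567 to 0.208. Between the CD144 sort of day 6.5 and day 2.5 the change differed for 6 genes (against 4.84% of probe sets and 7.22% of genes). Myl7 (-5.24, adjusted p = 6.56e-09), Isl1 (-2.37, adjusted p = 0.0457), Hand2 (-1.93, adjusted p = 0.0428) and Tbx20 (-1.86, adjusted p = 0.0255) went downward. Myh6 (2.93, adjusted p = 0.00234) and Mef2c (2.33, adjusted p = 0.0223) went upward. Only Myl7 and Myh6 held with each array left out, and the other calls were lost without 1 of the 8 arrays (adjusted p of 0.0558 to 0.205). Without CD144+ replicate 1 of day 6.5 or either VEGF-R2- array 2 genes were called, and without either VEGF-R2+ array, CD144+ replicate 2 or CD144- replicate 2 of day 6.5 there were 3.

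Markers of other cell types moved with the contractile genes by day 6.5. The summed signal of 8 smooth muscle genes was 17872 to 19322 in CD144+ cells at day 6.5, 2214 to 2239 in VEGF-R2+ cells, 6776 to 7499 in CD144- cells at day 6.5 and 2024 to 2067 in VEGF-R2- cells. In CD144+ cells of day 6.5 against VEGF-R2+ cells 4 of the 8 rose (Acta2, Tagln, Myocd and Des, of which Des is on both lists), with log2 change 4.95 ± 0.20, adjusted p = 1.53e-10 for Acta2, which encodes smooth muscle actin. Myh11 and Lmod1, more restricted to mature smooth muscle, were at or below the median in every population. Of 14 skeletal muscle genes, the defining factors Myod1, Myf5, Myog and Myf6 were at or below the median in every population. Acta1 and Tnni2 rose from VEGF-R2+ cells to CD144+ cells at day 6.5, and none of the 14 fell. Between the negative populations Acta1 rose, and Myf5 and Mylpf fell. The summed signal of the 14 was 895.6 to 1183 in VEGF-R2+ and 1919 to 2048 in CD144+ cells at day 6.5. It was 1764 to 1827 in VEGF-R2- and 1686 to 2095 in CD144- cells at day 6.5. The summed signal of 8 fibroblast and mesenchyme genes was 6574 to 7916 in CD144+ and 4698 to 4844 in CD144- cells at day 6.5, against 1820 to 2048 and 1574 to 1742 at day 2.5. Of these 8, 4 rose between the positive populations (Col1a1, Col1a2, Col3a1 and Postn) while Pdgfra and Thy1 fell, and 4 rose between the negative ones (Col1a1, Col1a2, Postn and Pdgfra).

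Genes of lineages other than muscle and mesenchyme moved in the same comparisons. All 6 erythroid genes, the embryonic globins Hba-x, Hbb-y and Hbb-bh1 among them, rose from day 2.5 to day 6.5 in both kinds of cell, and their summed signal was 531.5 to 823 in VEGF-R2+ and 38265 to 47646 in CD144+ cells, and 242 to 367 in VEGF-R2- and 42045 to 46714 in CD144- cells. Of 6 endoderm genes 5 rose in both (Foxa2, Sox17, Afp, Ttr and Apoa1), with sums of 947 to 1343 and 7843 to 8899 in the positive and 489 to 569 and 5098 to 6095 in the negative populations. Of 7 pluripotency genes 5 rose between the positive populations (sums 11624 to 13020 and 22068 to 25149), and 1 rose and 1 fell between the negative ones (43262 to 44488 and 34125 to 34389). Of 10 endothelial genes 6 rose between the positive populations (sums 20040 to 24799 and 35104 to 36510), and 8 fell and 1 rose between the negative ones (5432 to 5641 and 2139 to 2444). Sox1 and Pax6 of 4 neuroectoderm genes rose between the positive populations. Of 4 endocardial genes, Gata4 fell between the positive populations, and Gata4 rose and Nfatc1 fell between the negative ones. The fractions of day 3.5 also differed in these markers. The pluripotency sum was 42063 to 47946 in CD144+, 2162 to 6594 in CD41+, 30495 to 31441 in CD144- and 64107 to 64251 in CD41- cells. The erythroid sum was 2728 to 3064 in CD144+, 94014 to 112548 in CD41+, 841 to 1074 in CD144- and 351.5 to 512 in CD41- cells. The part of these cell types in the changes of the cardiac genes was not tested.

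Among 28 measured of 30 upstream heart regulators and signals, 12 were higher and 1 lower in VEGF-R2+ than in VEGF-R2- cells, where 16% and 13.7% of all genes were. Mesp1, the first factor of cardiac mesoderm (log2 change 3.76 ± 0.26, adjusted p = 6.3e-08), and Gata4, a zinc finger factor of the heart (log2 change 2.93 ± 0.26, adjusted p = 8.77e-07), were among them. In CD41+ and CD144+ cells of day 3.5 and CD144+ cells of day 6.5, 11, 10 and 11 of the 28 were lower than in VEGF-R2+ cells, where 7.59%, 3.92% and 8.86% of all genes were lower. In the CD144+ cells of the 2 days 1 and 4 of the 28 were higher, against 7.21% and 12.8% of all genes. Mesp1 was lower in CD144+ cells at day 6.5 (log2 change -5.35 ± 0.26, adjusted p = 1.07e-09), where Hand2 and 5 thin filament genes were higher. Tbx1, a T-box factor of the second heart field and pharynx, was higher there (log2 change 3.74 ± 0.66, adjusted p = 0.000839). In CD144- cells of day 3.5, 8 of the 28 were higher than in VEGF-R2- cells and 1 lower, against 6.49% and 4.93% of all genes, with Mesp1 (log2 change 2.14 ± 0.26, adjusted p = 5.77e-05) and Fgf8, a signal of early mesoderm and second heart field (log2 change 3.67 ± 0.19, adjusted p = 3.23e-08), among the higher. By day 6.5 Myocd, the coactivator of serum response factor in heart and smooth muscle, was higher in CD144- than in VEGF-R2- cells (log2 change 2.78 ± 0.74, adjusted p = 0.0252).

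Among 38 measured of 40 other heart muscle genes, 10 were higher and 4 lower in VEGF-R2+ than in VEGF-R2- cells, where 16% and 13.7% of all genes were, with Rbm24, a muscle splicing regulator, at 2.80 (adjusted p = 6.91e-07). By day 6.5, 6 were higher and 3 lower in CD144+ cells than in VEGF-R2+ cells, near the 12.8% and 8.86% of all genes. In CD144- cells 10 were higher than in VEGF-R2- cells, against 8.2% of all genes. Cryab, a small heat shock protein of muscle and other tissues, rose in both (6.78, adjusted p = 1.72e-08 and 2.82, adjusted p = 0.000282). Ankrd1, a sarcomeric ankyrin repeat protein, and Fabp3, a fatty acid carrier of heart and other tissues, rose between the positive populations (2.67, adjusted p = 0.00348 and 2.46, adjusted p = 4.88e-05). Both genes were also called higher in CD144- cells of day 6.5 than in VEGF-R2- cells. From VEGF-R2+ to CD41+ cells Pdlim3, a Z-disc protein, was lower (log2 change -4.04 ± 0.30, adjusted p = 1.52e-07).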

How the data were processed

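Expression was measured on 16 arrays of 8 sorted populations, grouped by the sample labels. The deposited values are intensity measures, made by the authors with MAS5 and scaled array by array. The trimmed mean (2nd to 98th percentile) was 499.8 on every array. The MAS5 version was not given in the sources used here, and the study's own lists came from dChip values that were not used here. Of 45101 probe sets, 64 controls were left out. A single gene symbol was annotated to 34945 of the rest, several to 932 and no symbol to 9160.

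To each signal 6 was added, the rounded 10th percentile of the arrays. The log2 values of the 8 populations entered 1 limma fit (version 3.58.1, R 4.3.3; moderated statistics with a trend, Benjamini-Hochberg over 45037 probe sets, threshold 0.05), without a replicate block. The limma fit was tested on simulated data with 200 changed probe sets. Members and lists were chosen with earlier results of these data known, and no list here is independent evidence. By rule, all arrays were printed for 18 genes. These passed a test with 1 of the 4 largest changes there and a higher mean above the median, or are regulators with a call. Of the 35 genes, 24 passed somewhere. Nkx2-5, with all arrays, was added after its values were seen. So were Myl4, Tpm1, Atp2a2, Pln, Nppb and Csrp3, which are given by some arrays, ranges or means. The 13 comparisons of 2 populations and 3 interactions share arrays. Alternatives were quantile normalization, offsets of 1 and 32, a filter on dim probe sets, other probe sets per gene, fits of fewer arrays, a robust prior without trend, a replicate block, a lower 90% bound of the fold above 2 (the study's criterion) and leaving out each array. The number of arrays limits the precision. Figures and motif matches used Python 3.11.15, pandas 2.3.3, numpy 2.4.6 and matplotlib 3.10.9. Arrays of E9.5 embryos were not analysed here.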

Additional observations from a re-analysis of the deposited data

Results flagged for a closer look

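The results below were singled out because the change from day 2.5 differed between positive and negative cells by an interaction test in limma. No cause was tested. Of all genes at 1 probe set each, 7.73% differed in the CD41 interaction, and 8.34% and 7.22% in the CD144 interactions of day 3.5 and day 6.5. Between the CD41 sort of day 3.5 and day 2.5, 5 genes differed: Myl7 by -2.48, Actc1 by -2.70, Tpm1 by -1.07, Mef2c by 3.06 and Des by 1.71 on the log2 scale. Of their probe sets, 3 of 4 passed for Tpm1, 3 of 5 for Mef2c and 1 of 2 for Des. Between the CD144 sort of day 3.5 and day 2.5, 8 genes differed: Myl7 by -6.81, Isl1 by -3.64, Hand2 by -3.55, Tnni1 by -3.30, Tbx20 by -2.71, Hand1 by -2.50, Myh6 by 3.25 and Mef2c by 3.18. Here 2 of 2 probe sets passed for Isl1, 1 of 3 for Hand2 and for Tbx20, 1 of 2 for Hand1 and for Myh6, and 3 of 5 for Mef2c. Dimmer probe sets of Tpm1 (2 of 4, downward) and Ldb3 (1 of 3, upward) passed too. Between the CD144 sort of day 6.5 and day 2.5, 6 genes differed: Myl7 by -5.24, Isl1 by -2.37, Hand2 by -1.93, Tbx20 by -1.86, Myh6 by 2.93 and Mef2c by 2.33. In this test 1 of 2 probe sets passed for Isl1 and for Myh6, 1 of 3 for Hand2 and for Tbx20, and 2 of 5 for Mef2c. Dimmer probe sets of Tpm1 (1 of 4, downward), Smyd1 (1 of 6, downward) and Ldb3 (1 of 3, upward) passed too. With 2 arrays per population no single array could be tested as an outlier.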

How the results depend on the processing

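Of 160 changes of single genes past the threshold, 48 kept their direction and their call under all alternatives run, 109 lost the call under at least 1, and 17 had the opposite sign with another probe set. With the probe set of largest variance or of second highest mean, Hand1 gave -0.62 in VEGF-R2+ against VEGF-R2- cells and -0.30 in CD41+ against CD41- cells, and Des gave -0.22 in the CD41 interaction. With that of largest variance, Mef2a gave -2.02, -1.33 and -0.63 in the VEGF-R2 and the CD144 sorts of day 3.5 and day 6.5, and from VEGF-R2+ to CD41+ cells Atp2a2 gave 0.05 and Tpm1 0.11. With that of second highest mean, Mef2a gave -0.030 in the VEGF-R2 sort, Tpm1 -0.15 in the CD144 sort of day 6.5, Myl4 1.55, Myh6 0.21 and Hand2 0.022 from VEGF-R2+ to CD41+ cells, Myl4 -0.037 from VEGF-R2+ to CD144+ cells of day 6.5 and -1.62 in CD144+ against CD41+ cells, Isl1 0.31 from VEGF-R2- to CD41- cells, and Hand2 -1.18 from VEGF-R2- to CD144- cells of day 3.5 and -0.51 in CD144- against CD41- cells. The cause was not tested.

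A lower 90% bound of the fold above 2 left 8 genes in the VEGF-R2 sort, 8 in the CD41 sort, 3 and 3 in the CD144 sorts of day 3.5 and day 6.5, 7 from VEGF-R2+ to CD41+ cells, 4 to CD144+ cells of day 3.5 and 5 from VEGF-R2- to CD144- cells of day 3.5, since it asks for a larger change. A fit of only the compared populations called 5 from VEGF-R2+ to CD41+ cells, 5 to CD144+ cells of day 3.5 and 5 in CD144+ against CD41+ cells. A fit of the positive arrays alone called 5 from VEGF-R2+ to CD144+ cells of day 3.5. Of the calls of single genes among positive populations, that fit kept 47 and lost 13. A fit of the negative arrays alone kept 35 and lost 1, and fits of only the compared populations kept 125 and lost 35. The probe set of second highest mean gave 7 from VEGF-R2+ to CD41+ cells, 8 in CD144+ cells from day 3.5 to day 6.5, 6 from VEGF-R2- to CD144- cells of day 3.5 and 1 in CD144- against CD41- cells. In the CD41 interaction, that of largest variance gave 3 and a robust prior without trend 3, and the latter gave 3 in the CD144 interaction of day 6.5. With 1 array left out at a time, the number called ran from 9 to 13 in the VEGF-R2 sort, 4 to 8 in the CD144 sort of day 3.5, 6 to 11 from VEGF-R2+ to CD41+ cells, 5 to 9 from VEGF-R2+ to CD144+ cells of day 3.5, 5 to 7 from VEGF-R2- to CD144- cells of day 3.5, 3 to 7 in the CD41 interaction and 2 to 4 in the CD144 interaction of day 6.5. A lone array was then assumed to vary like the other populations.

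Quantile normalization moved the median of all probe sets by -0.155 in CD144+ cells of day 6.5 against VEGF-R2+ cells, and called 1 gene higher and 3 lower in the CD41 interaction, 2 and 2 in the CD144 interaction of day 6.5, and 5 and 0 in CD144- against CD41- cells, beside 2 and 3, 2 and 4, and 5 and 1. No shared deviation of same-numbered replicates was seen: over 28 pairs of populations, same-numbered arrays deviated from their means with correlations of -0.0468 to 0.0472. Whether a number marks a shared experiment cannot be told from this, and the labels do not say. With the replicate block, all 16 counts stayed within 1.5 times, and 4 calls were lost: Hand1 from VEGF-R2+ to CD41+ cells (adjusted p = 0.0526), Mef2c from VEGF-R2- to CD144- cells of day 3.5 (0.0561), Des in the CD41 interaction (0.0516) and Isl1 in the CD144 interaction of day 6.5 (0.051). With 2 arrays per population, changes of dim genes near the median of all values are the least certain. The filter on dim probe sets removed some dim genes, for which it gave no value.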
